A study of Mus musculus with 8 samples.

Results

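Interferon-stimulated genes are described in LPS-activated mouse macrophages with and without ursodeoxycholic acid (UDCA). They are 48 genes taken by symbol from the 55487 genes of the expression table, and each of the 48 was found once. By known role they comprised interferon beta and the 2 chains of its receptor (3 genes), antiviral effectors (19), nucleic acid sensors (6), interferon-gamma-type GTPases (9), and regulators and modifiers (11). RNA was sequenced from J774A.1 cells, an established mouse macrophage line, after 24 h with LPS alone (the LPS group, 4 libraries) or with LPS and UDCA together (the LPS + UDCA group, 4 libraries). LPS, a bacterial cell wall component, was used at 1 μg/mL and UDCA, a secondary bile acid, at 1 mM. Both groups received LPS, and a group without LPS was not analysed here, so the comparison measures what UDCA changed on top of LPS and not the induction by LPS itself.

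LPS activates the receptor TLR4, whose TRIF arm switches on the interferon beta gene. Secreted interferon beta acts back on the same cells through IFNAR1 and IFNAR2, and the kinases JAK1 and TYK2 then activate a complex that contains STAT2 and IRF9 and binds the interferon-stimulated response element (ISRE) in the promoters of target genes. Interferon gamma acts through a different receptor and the gamma-activated site (GAS), and typically induces the GTPases that attack intracellular pathogens, although both interferons share many targets.

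The deposited unit is TPM, in which reads are divided by gene length and scaled within a library, so levels can be compared between genes. The depth of the libraries is unknown. TPM summed to 973190 to 977485 in the LPS libraries and 958918 to 962737 in the LPS + UDCA libraries, and 0 of 28 pairs of libraries held identical values. The labels number the libraries without saying that they came from separate cultures, so p-values measure only the spread between these samples, which may be technical. Of 10 macrophage markers, Mertk was at 0 in every library and Mrc1 was at 0.01 TPM or less, whereas the other 8 were detected in every library. The summed level of the 10 markers was 3082 to 3244 TPM with LPS and 1192 to 1317 TPM with UDCA. Lyz2 held the largest part of the sum in both groups, with means of 1988 and 435.5 TPM. At the FDR used below, 3 of the 8 were higher (37.5%) and 5 lower (62.5%), beside 40.2% and 32.3% of all genes tested. Cx3cr1, among the 5, had means of 3.85 and 0.38 TPM and passed the filter used below only through the LPS libraries. Markers of dendritic cells summed to 0.59 TPM or less, those of endothelial cells to 0.73 to 0.97 TPM with LPS and 0.04 to 0.50 TPM with UDCA, and those of B cells to 3.10 to 4.50 and 0.35 to 1.60 TPM, nearly all of it Cd79b. Markers of T cells, natural killer cells, fibroblasts and epithelial cells summed to 0.12 TPM or less in every library. In bulk RNA, fewer cells of a type and less RNA per cell cannot be told apart, and the part of the change in macrophage markers in the results below was not tested.

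Of the 48 genes, 40 reached a mean of 1 TPM over the 8 libraries and were tested with limma on log2(TPM + 1) among 11796 genes, with Benjamini-Hochberg adjustment over all of them. Fold changes are LPS + UDCA minus LPS on that scale, where the added 1 shrinks the fold changes of weakly expressed genes. "Rose" and "fell" are used for an FDR under 0.05, and "called" for the same FDR with a fold change of at least 2. Ifit2 had a mean under 1 TPM in LPS and passed the filter only through the LPS + UDCA libraries, so that it had to differ to be tested.

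The interferon-stimulated genes did not move in a single direction with UDCA. Of the 40 tested, 2 were called higher (Gbp3 and Parp9, 5.0%) and 2 called lower (Oas1a and Zbp1, 5.0%), whereas 8.71% of all genes tested were called higher and 8.44% called lower. At the FDR alone, 16 rose (40.0%) and 10 fell (25.0%), beside 40.2% and 32.3% of all genes tested. The 2 groups of libraries did not overlap for 24 of the 40 (60.0%), beside 66.8% of all genes tested. The median log2 fold change was 0.01 over the 40, with 20 positive and 20 negative, against 0.08 over all genes tested. Its sign is not settled, since it was -0.06 to -0.10 under 3 other scalings of the libraries (median of ratios, quantile normalization and centring on the median of all genes). The shares of these genes that changed were therefore near or below the background, and what follows is a description of which of them went up and which went down.

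**Figure D1:**
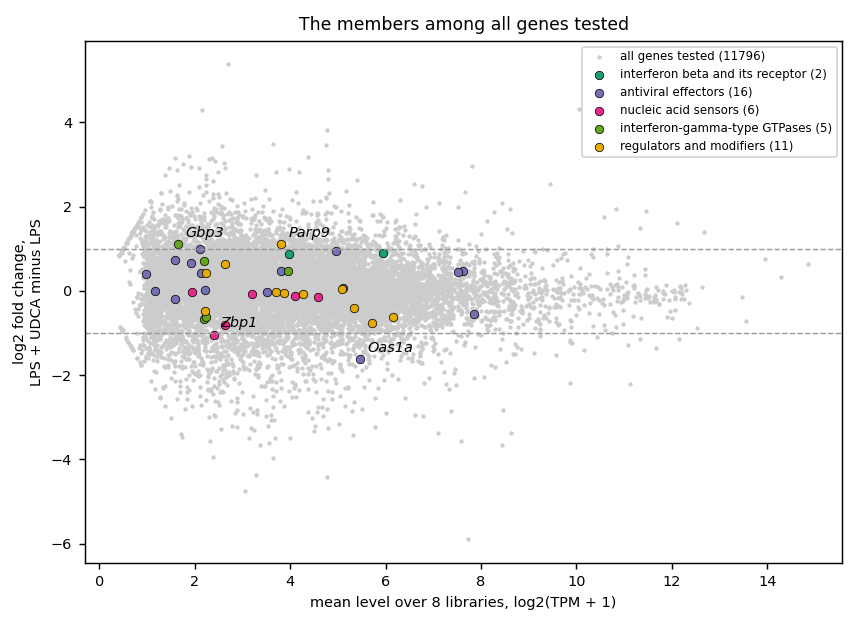
Log2 fold change (vertical axis, LPS + UDCA minus LPS) against mean level over the 8 libraries (horizontal axis, log2(TPM + 1)) for the 11796 genes tested in grey and the 40 tested interferon-stimulated genes coloured by role. The dashed lines mark a 2-fold change, and the 4 named genes (Gbp3, Parp9, Oas1a and Zbp1) are the called ones, while the others lie within the grey cloud between the lines.

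Promoter sequence is shown first for the genes at both ends of the range of change, since the ISRE is the element through which these genes are known to answer interferon. Promoter windows from 250 bases before to 50 bases after each start site, taken from RefSeq on GRCm38.p6, were held for 37 of the 48 genes. Gbp3 had the highest log2 fold change of the 40 tested genes and Oas1a the lowest. Their windows, chr3:142559794-142560093 on the plus strand and chr5:120907476-120907775 on the minus strand, are printed 5′ to 3′ with the ISRE matches in capitals.
Gbp3: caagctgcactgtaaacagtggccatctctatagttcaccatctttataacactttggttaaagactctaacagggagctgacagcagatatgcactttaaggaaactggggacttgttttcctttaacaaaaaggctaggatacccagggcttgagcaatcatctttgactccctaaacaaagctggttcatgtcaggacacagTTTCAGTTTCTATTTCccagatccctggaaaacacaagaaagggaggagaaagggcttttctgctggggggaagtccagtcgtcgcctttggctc
Oas1a: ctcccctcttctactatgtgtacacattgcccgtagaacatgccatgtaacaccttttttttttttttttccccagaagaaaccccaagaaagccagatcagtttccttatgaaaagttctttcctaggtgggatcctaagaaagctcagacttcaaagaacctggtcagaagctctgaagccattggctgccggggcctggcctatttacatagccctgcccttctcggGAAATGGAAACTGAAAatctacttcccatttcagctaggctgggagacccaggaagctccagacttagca
ISRE was searched as GAAA, any 2 bases, GAAA, on both strands. Each of these promoters thus carried a pair of overlapping ISRE matches close to the start site, on the minus strand of the gene in Gbp3 (first bases at -45 and -39) and on its plus strand in Oas1a (-20 and -14). A second start site of Gbp3 had no match in its window.

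Over the 37 promoters, 19 (51.4%) held at least 1 ISRE match, beside 1079 of 27025 genes (3.99%) in the RefSeq table. A longer form, in which the same letters are followed by CT, was present in 12 (32.4%) beside 82 genes (0.303%), and every longer match is also an ISRE match. GAS, searched as TTC, any 3 bases, GAA on both strands, was present in 12 (32.4%) beside 2582 genes (9.55%). ISRE matches were held by 8 of 15 effectors, 3 of 3 sensors, 7 of 8 GTPases, 1 of 8 regulators and 0 of 3 of the interferon beta and receptor genes with a window. A match is a description of letters in the window and not a measured binding site.

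Some of the closest relatives shared their sites letter for letter. The overlapping genes Igtp and Irgm2 carried the same match and the same 5 bases on either side, as did Ifit3 and Ifit3b, and Isg15, the ubiquitin-like member at the second highest level, carried 3 overlapping matches of which the middle one is printed.
Igtp: gaactGAAACTGAAAgctgt
Irgm2: gaactGAAACTGAAAgctgt
Ifit3: gtaagTTTCACTTTCctctt
Ifit3b: gtaagTTTCACTTTCctctt
Isg15: aaaagGAAACCGAAAcagaa
In Igtp the match lay at chr11:58199522-58199531 and in Irgm2 at chr11:58214913-58214922, first bases -34 and -64 from their start sites. Igtp and Irgm2 had opposite fold changes, but the genes overlap and their levels rest on how reads were divided between them, as described with the GTPases.

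Of the tested genes with an ISRE match, 5 of 15 rose and 5 fell, with a median log2 fold change of -0.0005. Of those without, 7 of 16 rose and 3 fell, with a median of 0.216. Among the 10 with a GAS match, 5 rose and 3 fell (median 0.216), beside 7 and 5 of the 21 without (median -0.0005). Genes that rose and genes that fell were found with and without either motif, and the differences between these counts and medians were not tested. Over all genes tested, 40.2% rose and 32.3% fell, with a median of 0.08. Ifit2, counted as rising without an ISRE match and with a GAS match, passed the filter only through the LPS + UDCA libraries.

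**Figure D2:**
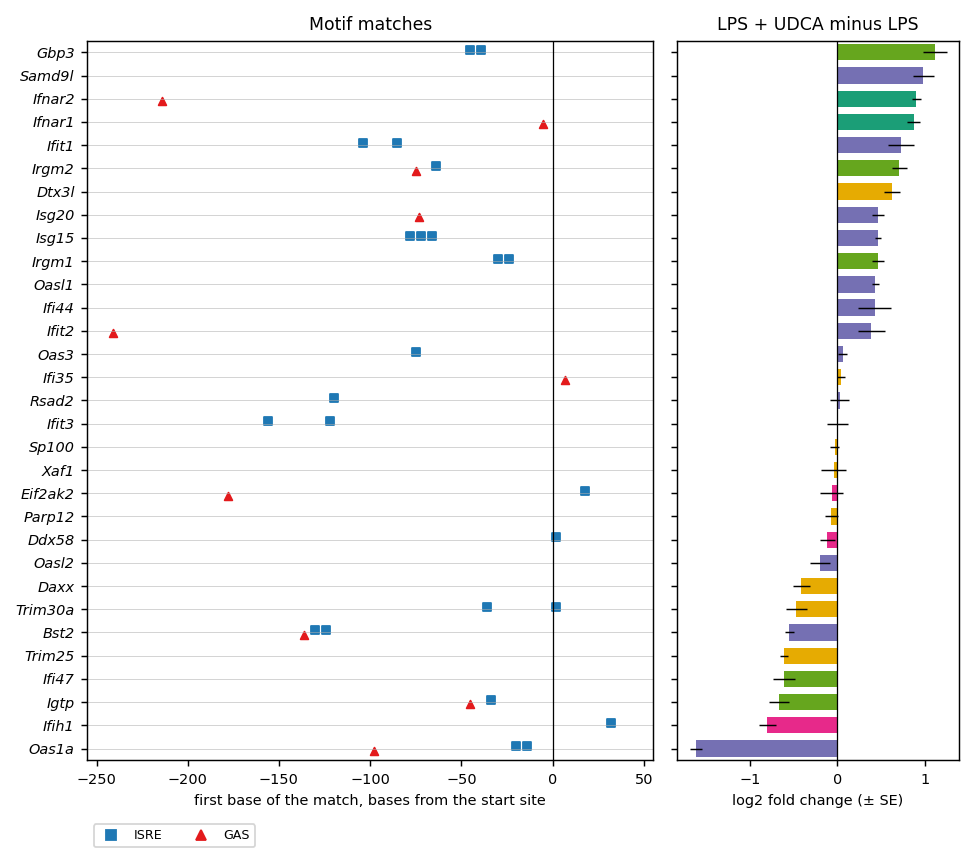
Left, first base of each ISRE (blue squares) and GAS (red triangles) match in bases from the start site, in the 31 tested genes with a promoter window; right, log2 fold change with its standard error, coloured by role as in the plot of all genes. Genes are ordered by fold change, and ISRE matches appear from Gbp3 at the top to Oas1a at the bottom.

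Interferon beta itself was close to the limit of the table, whereas both receptor chains rose. Ifnb1, the gene of interferon beta, was at 0.44, 0.12, 0.32 and 0.36 TPM in LPS replicates 1 to 4 against 0.21, 0.40, 0.75 and 1.02 TPM in replicates 1 to 4 with UDCA (libraries are given in this order throughout). The groups overlapped, and the means of 0.31 ± 0.14 and 0.60 ± 0.36 TPM (SD, n = 4) could not be told apart by an exact permutation test (p = 0.229, 2-sided), whose smallest p with 4 against 4 libraries is 0.029. Of 20 other interferon genes, 19 were at 0 in every library and Ifnk reached at most 0.24 TPM, so no ligand of the family was well measured at 24 h.

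Ifnar1, the receptor chain that engages TYK2, was at 11.09, 9.46, 9.89 and 11.96 TPM with LPS and at 19.25, 20.53, 19.92 and 21.06 TPM with UDCA. Every LPS + UDCA library was above every LPS library, and Ifnar1 rose from 10.6 ± 1.14 to 20.2 ± 0.78 TPM (log2 fold change 0.87, SE 0.0759, adjusted p = 6.61e-06). Ifnar2, the chain that holds most of the ligand binding, was at 44.14, 47.27, 40.42 and 44.12 TPM and at 83.26, 84.01, 83.29 and 82.15 TPM. It stood above Ifnar1 in every library and rose by nearly the same factor, from 44.0 ± 2.80 to 83.2 ± 0.77 TPM (0.91, SE 0.0487, adjusted p = 3.19e-07). Neither chain reached 2-fold.

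**Figure D3:**
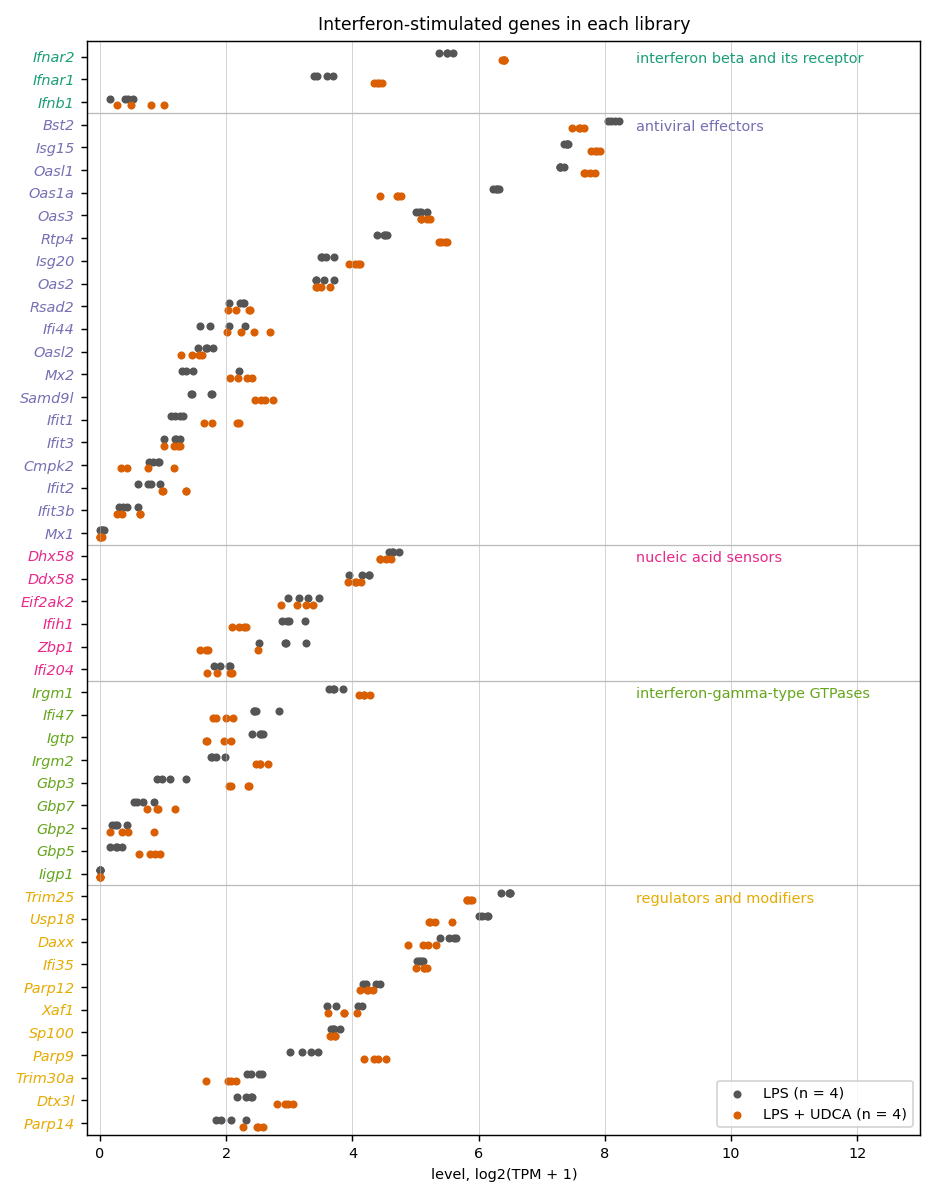
Level of each of the 48 genes in each library, as log2(TPM + 1), with LPS in grey and LPS + UDCA in orange (n = 4 each); gene names are coloured by role and ordered by mean level with LPS within each role. Ifnar1, Ifnar2, Rtp4 and Parp9 are clearly higher with UDCA, Oas1a, Trim25 and Usp18 clearly lower, and Mx1 and Iigp1 sit at or near 0 in both groups.

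The antiviral effectors block steps of virus entry, replication or release. Of 19 effectors 16 were tested, of which 8 rose (50%, Ifit2 among them), 2 fell (12.5%) and 6 did not pass, beside 40.2% and 32.3% of all genes tested. The median log2 fold change was 0.41, and it was 0.06 without a filter on low values and 0.25 with a mean of at least 5 TPM. Taken library by library relative to the LPS mean, the median over these genes was -0.06 to 0.02 with LPS and 0.14 to 0.51 with UDCA. Their summed level hardly differed (755 to 801.9 TPM with LPS and 765.8 to 817.4 TPM with UDCA), and the effectors at the highest levels moved in opposite directions.

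Bst2, tetherin, which holds budding virus at the cell surface, had the highest level of the 48 genes. It was at 264.8, 298.96, 284.14 and 272.59 TPM with LPS and at 193.69, 202.88, 191.00 and 176.5 TPM with UDCA. The groups did not overlap, and Bst2 fell from 280.1 ± 14.9 to 191 ± 10.9 TPM (-0.55, SE 0.0522, adjusted p = 1.18e-05). The next in level, Isg15, a ubiquitin-like protein that is attached to viral and host proteins, rose from 166.8 ± 3.30 to 231.1 ± 10.1 TPM (0.47, SE 0.0379, adjusted p = 4.17e-06). Oasl1, an OAS-like protein known to limit translation of Irf7 mRNA, rose from 156.8 ± 3.31 to 212.7 ± 11.5 TPM (0.44, adjusted p = 1.37e-05). With LPS every library had Bst2 above Isg15 and Oasl1, whereas with UDCA Isg15 stood above Bst2 in every library and the ranges of Oasl1 (202.56 to 227.82 TPM) and Bst2 met at the edge.

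Oas1a, one of the enzymes that make 2-5A to activate RNase L, went furthest down. It was at 76.06, 78.74, 74.33 and 77.06 TPM with LPS and at 26.35, 25.25, 24.96 and 20.65 TPM with UDCA. All LPS + UDCA libraries lay far below the LPS libraries, and Oas1a fell from 76.6 ± 1.85 to 24.3 ± 2.51 TPM (-1.62, SE 0.0712, adjusted p = 9.77e-08). It is at chr5:120896256-120907521 (GRCm38, minus strand), where its neighbour Oas1g shares transcript sequence with it: 68.8% of the 31-base words of Oas1a are also found in another gene, most often in Oas1g. How the authors' counting divided such reads is not given in the sources used here, so the summed level of Oas1a and Oas1g was also compared. The sum was 264.5 ± 2.59 TPM with LPS and 82.5 ± 8.01 TPM with UDCA, a ratio of 0.312 (exact permutation test, p = 0.029). The 2 genes together therefore fell. Oas1g made up most of this sum (means of 188.0 and 58.2 TPM), so the sum cannot show how far Oas1a itself fell.

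Oas1g fell as well (-1.68, adjusted p = 1.44e-07), while the OAS and OAS-like genes among the 48 other than Oas1a and Oasl1 did not pass. Oas2 had means of 10.6 and 10.3 TPM (-0.03, adjusted p = 0.777), Oas3 had 33.0 and 34.4 TPM (0.06, adjusted p = 0.358) and Oasl2 had 2.21 and 1.81 TPM (-0.20, adjusted p = 0.153). Oas3 changed its sign, to -0.05 and -0.02, when libraries were scaled by median of ratios or centred on the median of all genes, without passing the test. Oas1b (-0.11, adjusted p = 0.353) and Oas1c (0.04, adjusted p = 0.827), which are not among the 48 and were named after their values were seen, did not pass either.

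Samd9l and Rtp4 had the highest fold changes of the effectors. Samd9l, a restriction factor of poxviruses, was at 1.76, 2.41, 1.71 and 2.40 TPM with LPS and at 4.89, 4.48, 5.71 and 5.13 TPM with UDCA. The groups were well separated at this low level, and Samd9l rose from 2.07 ± 0.39 to 5.05 ± 0.51 TPM (0.98, SE 0.117, adjusted p = 5.13e-05), just short of 2-fold on this scale. It passed 2-fold with a pseudocount of 0.1 or 0.01 (1.26 and 1.30) and without LPS replicate 2 (1.04), LPS replicate 4 (1.04) or LPS + UDCA replicate 2 (1.03).

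Rtp4, a receptor transporter protein that also restricts RNA viruses, was at 21.84, 22.40, 19.87 and 21.73 TPM with LPS and at 40.32, 41.40, 43.12 and 44.03 TPM with UDCA. It rose in a narrow spread from 21.5 ± 1.10 to 42.2 ± 1.67 TPM (0.94, SE 0.0522, adjusted p = 3.79e-07). Rtp4 shares 12.5% of its words, most often with the overlapping gene Gm45338, and it also overlaps Masp1 on the other strand, so that reads of these genes could not be told apart without strand.

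The IFIT family, whose members bind foreign RNA ends, was at low level throughout. Ifit1 rose from 1.34 ± 0.14 to 2.92 ± 0.75 TPM (0.73, adjusted p = 0.00175) and passed 2-fold with a pseudocount of 0.1 or 0.01. Ifit2 rose from 0.73 ± 0.17 to 1.28 ± 0.34 TPM (0.39, adjusted p = 0.0441), but it did not pass in 7 of the 13 alternatives in which it was tested, with adjusted p from 0.0172 to 0.149. Ifit3 was at 1.26 TPM in both groups (adjusted p = 0.997), and with its near copy Ifit3b, which shares 55.2% of its words with other genes, the sum was 1.61 ± 0.20 and 1.65 ± 0.11 TPM (exact permutation test, p = 0.686).

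Among the other effectors Isg20, an exonuclease, rose from 11.0 ± 0.81 to 15.6 ± 0.84 TPM (0.47, adjusted p = 1.85e-04). Mx2, a dynamin-like GTPase, rose from 2.10 ± 1.00 to 3.76 ± 0.51 TPM (0.66, adjusted p = 0.0137), although its groups overlapped because LPS replicate 2 was at 3.59 TPM. Rsad2, viperin, had means of 3.61 and 3.71 TPM (0.03, adjusted p = 0.842; -0.06 to -0.08 under the 3 other scalings) and Ifi44 had 2.85 and 4.16 TPM (0.43, adjusted p = 0.0703). The remaining 3 effectors were too low to test, namely Mx1 at 0.05 TPM or less in every library, Ifit3b with means of 0.35 and 0.40 TPM, and Cmpk2 with 0.83 and 0.64 TPM.

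The nucleic acid sensors detect viral RNA or DNA inside the cell. All 6 were tested, 0 rose, 2 fell (33.3%, beside 32.3% of all genes tested) and 4 did not pass, and all 6 log2 fold changes were negative, from -1.04 to -0.03, with a median of -0.13. Library by library the median was -0.07 to 0.10 with LPS and -0.30 to -0.10 with UDCA, and the summed level was 60.99 to 72.18 TPM with LPS and 48.96 to 58.93 TPM with UDCA. The difference between sensors and effectors was not tested, and Eif2ak2 and Ifi204 had positive values without some libraries. Under some alternatives Ddx58 and Dhx58 also passed the FDR as lower.

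Zbp1, a sensor of Z-form nucleic acids that can trigger necroptosis, fell most. It was at 6.69, 8.60, 6.66 and 4.71 TPM with LPS and at 2.22, 4.67, 2.0 and 2.29 TPM with UDCA. The groups were barely separated, between LPS replicate 4 and LPS + UDCA replicate 2, while the means were 6.67 ± 1.59 and 2.80 ± 1.26 TPM (-1.04, SE 0.224, adjusted p = 0.00233). Its 2-fold call was lost without LPS replicate 2 (-0.93) or without LPS + UDCA replicate 1 (-0.98), 3 (-0.95) or 4 (-0.99), each time with the FDR still passed, and without LPS + UDCA replicate 2 it was -1.25. LPS + UDCA replicate 2 was also the highest of its group for Usp18 (46.51 TPM) and for the neutrophil marker S100a8, at 9.03 TPM beside 2.47 to 3.48 TPM in the other 3 and 17.25 to 21.17 TPM with LPS. The summed level of the 5 neutrophil markers was 18.6 to 25.4 TPM with LPS and 2.72 to 9.03 TPM with UDCA, with the defining marker Ly6g at 0 in every library.

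Ifih1, MDA5, which recognises long double-stranded RNA, was at 8.52, 6.80, 6.42 and 6.95 TPM with LPS and at 3.28, 3.88, 3.59 and 3.96 TPM with UDCA. The groups did not overlap, and Ifih1 fell from 7.17 ± 0.93 to 3.68 ± 0.31 TPM (-0.80, SE 0.0981, adjusted p = 6.4e-05). The other RIG-I-like receptors did not pass. Ddx58, RIG-I itself, had means of 16.9 and 15.5 TPM (-0.11, adjusted p = 0.235). It passed the FDR as lower under 3 of 17 alternatives, 2 of the other scalings among them, with adjusted p from 0.0168 to 0.454. Dhx58, LGP2, which lacks the signaling domains of the other two, had the highest level of the sensors, at 25.73, 23.58, 22.78 and 23.87 TPM and at 20.67, 23.40, 20.66 and 22.10 TPM. Its groups overlapped (-0.14, SE 0.0594, adjusted p = 0.0604), and it passed the FDR under 4 of 17 alternatives, the 3 other scalings among them, with adjusted p from 0.00135 to 0.144.

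Eif2ak2, PKR, the kinase that stops translation on double-stranded RNA, was at 10.04, 6.86, 7.92 and 8.87 TPM and at 6.31, 7.75, 9.32 and 8.65 TPM. Ifi204, a DNA-binding PYHIN protein, was at 3.11, 2.48, 2.74 and 3.15 TPM and at 2.24, 2.60, 3.15 and 3.26 TPM. The libraries of both genes overlapped fully (-0.07, SE 0.134, adjusted p = 0.674 for Eif2ak2, and -0.03, SE 0.12, adjusted p = 0.849 for Ifi204). Ifi204 shares 34.0% of its words, most often with Ifi211, so its level is uncertain.

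The interferon-gamma-type GTPases split into risers and fallers. Of 9, 5 were tested and each of them passed the FDR without overlap, 3 higher (60.0%) and 2 lower (40.0%), with a median of 0.46. Over all genes tested, 40.2% rose, 32.3% fell and 66.8% did not overlap, and 5 genes are few for such shares. The summed level of the 9 was 24.5 to 27.4 TPM with LPS and 30.8 to 35.2 TPM with UDCA. The 5 belong to a family of guanylate-binding proteins (Gbp) on chromosome 3 and to immunity-related GTPases on chromosome 11, which build up on vacuoles that hold bacteria or parasites.

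Gbp3 was at 1.57, 0.88, 0.98 and 1.15 TPM with LPS and at 3.22, 3.11, 4.08 and 4.11 TPM with UDCA. Every LPS + UDCA library was above every LPS library, and Gbp3 rose from 1.15 ± 0.31 to 3.63 ± 0.54 TPM (1.11, SE 0.137, adjusted p = 6.63e-05). The 2-fold call was lost with quantile normalization (0.998). Gbp5 moved the same way below the filter, with means of 0.20 ± 0.07 and 0.76 ± 0.17 TPM and no overlap (exact permutation test, p = 0.029), whereas Gbp2 with 0.22 and 0.39 TPM and Gbp7 with 0.59 and 0.93 TPM overlapped.

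Irgm1, which guards host membranes against the other GTPases of the family, was the highest of the group, at 12.05, 11.38, 11.99 and 13.43 TPM with LPS and at 16.15, 17.23, 18.38 and 17.11 TPM with UDCA. It rose from 12.2 ± 0.87 to 17.2 ± 0.91 TPM (0.46, SE 0.0655, adjusted p = 1.62e-04). Irgm2, a relative of the same regulatory kind, was at 2.95, 2.58, 2.42 and 2.40 TPM and at 4.78, 5.31, 4.81 and 4.54 TPM. It rose from 2.59 ± 0.25 to 4.86 ± 0.32 TPM (0.71, SE 0.0889, adjusted p = 7.4e-05).

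Igtp, the third regulatory relative (Irgm3), was at 4.85, 4.29, 4.81 and 4.97 TPM with LPS and at 2.19, 2.89, 3.21 and 2.23 TPM with UDCA. It fell from 4.73 ± 0.30 to 2.63 ± 0.50 TPM (-0.67, SE 0.113, adjusted p = 5.38e-04), opposite to Irgm1 and Irgm2. Igtp and Irgm2 overlap on the same strand of chromosome 11 (chr11:58199556-58207591 and chr11:58199618-58222782) and share 15.9% and 10.7% of their words, most often with each other. Their sum was 7.32 ± 0.385 TPM with LPS and 7.49 ± 0.724 TPM with UDCA (exact permutation test, p = 0.771), so that a difference was seen in the division between the 2 genes and not in their total, and how the authors' counting assigned shared reads is not given in the sources used here. Ifi47, another GTPase of this class, was at 4.54, 4.40, 6.17 and 4.42 TPM and at 2.57, 3.31, 2.46 and 3.0 TPM. It fell from 4.88 ± 0.86 to 2.84 ± 0.39 TPM (-0.61, SE 0.123, adjusted p = 0.00156). Iigp1 was at 0 in all 8 libraries.

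**Figure D4:**
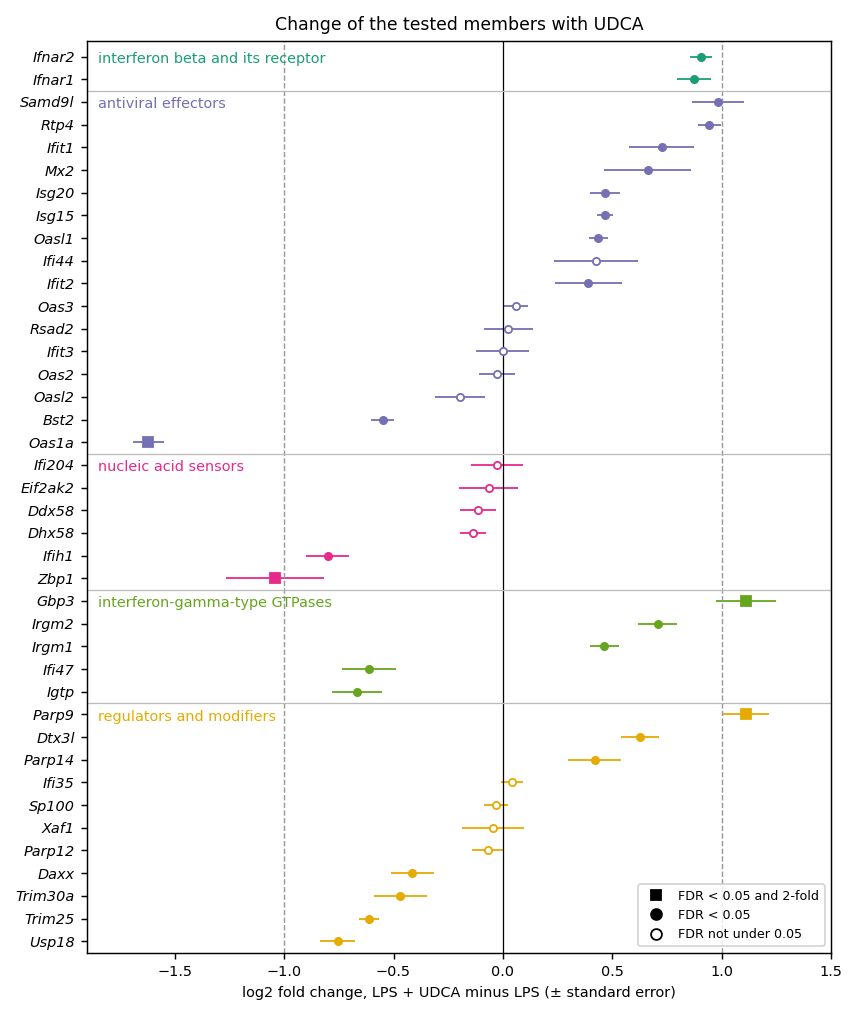
Log2 fold change of the 40 tested genes (LPS + UDCA minus LPS) with its standard error, by role and ordered within each role; squares passed the FDR and 2-fold, filled circles the FDR alone, and open circles neither. Points lie on both sides of 0 in the effectors, GTPases and regulators, whereas all 6 sensors lie at or below 0, from -1.04 to -0.03.

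Regulators and modifiers of the response went both ways (median -0.04, and -0.122 to -0.145 under the 3 other scalings). Of 11, 3 were higher (27.3%), 4 lower (36.4%) and 4 did not pass, beside 40.2% and 32.3% of all genes tested. With median-of-ratios scaling Parp12 and Sp100 also passed the FDR as lower (limma, adjusted p = 0.042 and 0.0381). The summed level of the 11 was 287.8 to 306.7 TPM with LPS and 231.8 to 259.9 TPM with UDCA. Those at the highest levels were among the genes that fell. Trim25, the ubiquitin ligase that acts on RIG-I, was at 88.87, 87.96, 80.56 and 89.68 TPM with LPS and at 55.17, 56.95, 55.14 and 58.35 TPM with UDCA. It fell from 86.8 ± 4.20 to 56.4 ± 1.55 TPM (-0.61, SE 0.0447, adjusted p = 2.14e-06), with a wide gap between the groups.

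Usp18, which removes ISG15 from proteins and also restrains signaling at IFNAR2, was at 69.32, 69.91, 63.28 and 65.13 TPM with LPS and at 36.20, 46.51, 38.67 and 36.37 TPM with UDCA. It fell from 66.9 ± 3.22 to 39.4 ± 4.85 TPM (-0.75, SE 0.0800, adjusted p = 2.48e-05) without overlap. In RNA level, Isg15 rose while this enzyme that removes its product fell, and Ifnar2 rose while this inhibitor fell. Neither the attachment of ISG15 nor signaling at the receptor was measured, and a link between these genes was not tested.

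Parp9 and Dtx3l, which work together as an ADP-ribosyltransferase and ubiquitin ligase pair, both rose. Parp9 was at 9.16, 8.20, 7.09 and 9.92 TPM with LPS and at 17.25, 19.23, 20.10 and 22.01 TPM with UDCA. It rose from 8.59 ± 1.22 to 19.7 ± 1.98 TPM (1.11, SE 0.106, adjusted p = 1.23e-05). Dtx3l was at 4.29, 3.96, 3.48 and 4.25 TPM and at 6.61, 7.35, 6.02 and 6.89 TPM. It rose from 4.00 ± 0.37 to 6.72 ± 0.56 TPM (0.63, SE 0.0884, adjusted p = 1.59e-04). In both genes the groups were apart, and the ratio of means was 2.29 for Parp9 and 1.68 for Dtx3l. The 2 genes lie head to head on chromosome 16 and overlap on opposite strands (Parp9 at chr16:35938470-35972605, plus strand, and Dtx3l at chr16:35926511-35939151, minus strand), and reads of the overlap cannot be told apart without strand.

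Parp14, at the same locus, rose from 3.13 ± 0.60 to 4.50 ± 0.50 TPM (0.42, adjusted p = 0.0122) with overlap between groups, and Parp12 on chromosome 6 had 18.8 and 17.8 TPM (-0.07, adjusted p = 0.413). Daxx, a nuclear body protein, fell from 45.7 ± 3.59 to 34.2 ± 4.52 TPM (-0.41, adjusted p = 0.00371), while Sp100, another protein of these bodies, had 12.2 and 11.9 TPM (-0.03, adjusted p = 0.613). Trim30a, a negative regulator of TLR4 signaling, fell from 4.48 ± 0.44 to 2.98 ± 0.54 TPM (-0.47, adjusted p = 0.00638), and it shares 11.7% of its words, most often with Trim30d. Ifi35 (32.6 and 33.6 TPM) and Xaf1 (14.1 and 13.5 TPM) did not pass.

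In level the genes spanned a wide range. With LPS 3 of the 48 had a mean of at least 100 TPM, 20 at least 10 TPM and 39 at least 1 TPM, and with UDCA 21 had at least 10 TPM and 40 at least 1 TPM. Bst2, Isg15, Oasl1, Trim25 and Oas1a held 63.0% of the summed TPM of the 48 genes with LPS. The sum over all 48 was 1198 to 1242 TPM with LPS and 1180 to 1247 TPM with UDCA, so that the groups overlapped in total. Gene by gene, 24 of the 40 tested (60.0%) did not overlap, beside 66.8% of all genes tested.

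Other genes of the pathway were counted in 3 lists with tested members. Of 15 genes of interferon receptor signaling, all tested, 8 rose (53.3%) and 5 fell (33.3%), with 2 called higher (13.3%) and 1 lower (6.67%, median 0.25). Of 19 genes that lead to interferon beta, 18 were tested, 11 rose (61.1%) and 6 fell (33.3%), with 3 called higher (16.7%) and 3 lower (16.7%, median 0.47). Of 76 further interferon-induced genes, 45 were tested, 13 rose (28.9%) and 25 fell (55.6%), with 0 called higher and 9 lower (20%, median -0.29). Over all genes tested these shares were 40.2% and 32.3%, with 8.71% and 8.44% called, and no difference between lists was tested. The lists were chosen with earlier results of these data known, and the 76 include Oas1g, which shares sequence with Oas1a. Under the 3 other scalings 0 to 1 were called higher in receptor signaling and 1 in interferon beta induction. Over all genes tested, 807 to 874 were then called higher, beside 1028 in the main fit. Gbp8 (0.55 and 2.06 TPM), among the 13, and Slfn9 (2.32 and 0.48 TPM), among the 9, passed the filter only through the group where they are high.

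Irf9 and Stat2, which act together at the ISRE, both rose in the main fit, but Stat2 did not pass under any of the 3 other scalings. Irf9, the DNA-binding protein of the pair, was at 20.96, 20.05, 20.77 and 21.85 TPM with LPS and at 36.27, 36.71, 35.39 and 36.97 TPM with UDCA. It rose from 20.9 ± 0.74 to 36.3 ± 0.69 TPM (0.77, SE 0.0437, adjusted p = 4.52e-07), with the groups far apart.

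Stat2 was at 8.57, 8.91, 7.68 and 9.39 TPM and at 10.60, 11.31, 9.69 and 10.08 TPM. It rose (0.25, SE 0.0768, adjusted p = 0.0165) but did not pass under the 3 other scalings (adjusted p over the alternatives from 0.0139 to 0.0848).

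The interferon gamma receptor changed little beside IFNAR. Ifngr1, its ligand-binding chain, was at 10.80, 10.40, 9.42 and 10.45 TPM and at 11.52, 12.33, 9.98 and 11.58 TPM, with overlap (0.13, SE 0.0756, adjusted p = 0.147). Ifngr2 was at 15.49, 14.90, 14.66 and 16.36 TPM and at 13.27, 13.72, 11.97 and 13.70 TPM. It fell slightly and without overlap (-0.21, SE 0.0630, adjusted p = 0.0144).

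Jak2, a kinase of the interferon gamma receptor, had the highest fold change of the signaling list. It was at 5.18, 4.34, 3.59 and 4.24 TPM with LPS and at 9.25, 10.32, 10.86 and 10.95 TPM with UDCA. It rose from 4.34 ± 0.65 to 10.3 ± 0.78 TPM (1.09, SE 0.101, adjusted p = 9.73e-06) and fell just short of 2-fold with median-of-ratios scaling or quantile normalization (0.999 each).

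Socs3, a cytokine-induced inhibitor of JAK kinases, went down more than any other gene of the lists. It was at 302.72, 313.96, 299.18 and 309.64 TPM with LPS and at 40.37, 48.70, 34.83 and 31.87 TPM with UDCA. All LPS + UDCA libraries were far below, and Socs3 fell from 306.4 ± 6.67 to 38.9 ± 7.40 TPM (-2.96, SE 0.111, adjusted p = 3.92e-08). The remaining called gene of the list, Pias1, an inhibitor of STAT signaling, rose (1.07, adjusted p = 8.68e-07), was short of 2-fold with median-of-ratios scaling (0.965) and with centring (0.985), and was named after its values were seen.

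Among the genes that lead to interferon beta, the transcription factors Irf1 and Irf7 went opposite ways. Irf1 was at 6.37, 5.62, 5.45 and 5.81 TPM with LPS and at 13.18, 12.71, 13.51 and 13.10 TPM with UDCA, and rose with little spread (1.05, SE 0.0637, adjusted p = 6.66e-07). It was short of 2-fold under the 3 other scalings (0.956 to 0.972). Irf7 was at 44.81, 44.40, 46.64 and 42.21 TPM and at 35.58, 39.30, 35.92 and 34.20 TPM, and fell without overlap (-0.29, SE 0.0535, adjusted p = 9.09e-04).

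Ticam2, the TRAM adaptor that links TLR4 to TRIF, was at 6.90, 6.62, 6.06 and 8.07 TPM with LPS and at 20.15, 21.17, 20.05 and 19.48 TPM with UDCA. It rose from 6.91 ± 0.85 to 20.2 ± 0.70 TPM (1.43, SE 0.0802, adjusted p = 4.2e-07), and shares 15.7% of its words, most often with the overlapping gene Tmed7. Sting1, the adaptor of cytosolic DNA sensing, was at 21.16, 22.06, 23.18 and 25.39 TPM and at 6.20, 3.73, 4.25 and 2.48 TPM. It fell from 23.0 ± 1.83 to 4.17 ± 1.55 TPM (-2.26, SE 0.189, adjusted p = 5.12e-06). The called genes outside the naming rule, given after their values were seen, were Ly96, the MD-2 partner of TLR4, which rose (1.02, and 0.912 to 0.972 under the 3 other scalings), and Cgas, the DNA sensor upstream of STING (-1.44), and Ikbke, a kinase of IRF3 (-1.05), which both fell.

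**Figure D5:**
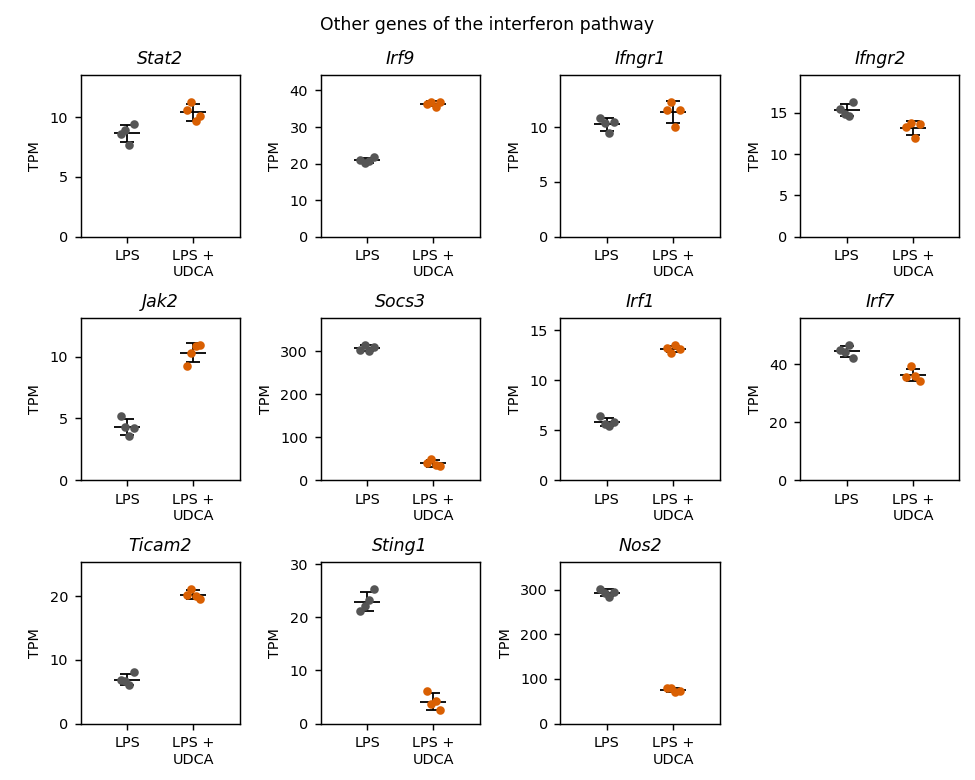
TPM in each library for 11 other genes of the interferon pathway, with LPS in grey and LPS + UDCA in orange (n = 4 each); black bars are the mean and SD, and each vertical axis starts at 0. Irf9, Jak2, Irf1 and Ticam2 are higher with UDCA in every library, and Socs3, Sting1 and Nos2 are lower in every library.

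Nos2, the inducible nitric oxide synthase of activated macrophages, had the lowest log2 fold change of the further interferon-induced genes. It was at 302.29, 292.37, 283.92 and 294.13 TPM with LPS and at 79.49, 79.16, 71.26 and 73.27 TPM with UDCA, and fell from 293.2 ± 7.53 to 75.8 ± 4.16 TPM (-1.94, SE 0.0442, adjusted p = 2.05e-09). The other 8 called lower, named after their values were seen, were the 3 catalytic subunits of the immunoproteasome (Psmb8 at -1.55, Psmb9 at -1.31 and Psmb10 at -1.04), the virus entry inhibitor Ifitm3 (-1.24), Oas1g (-1.68), Ifi27l2a (-1.48), Slfn9 (-1.16, with a mean of 0.48 TPM with UDCA) and Acod1, the itaconate-making enzyme (-1.33). Psmb8, Psmb9 and Psmb10 each fell without overlap between groups.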

How the data were processed

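The authors deposited 1 table of TPM per gene for 8 libraries, 4 per group, prepared with an Illumina TruSeq RNA kit and sequenced on an Illumina HiSeq. The submitters' processing notes name Bowtie 0.12.2 and the builds mm10 and GRCm38. The counting program, the annotation and the strand setting are not given in the sources used here, and counting error was not computed, since the number of reads cannot be read from TPM. Libraries were grouped by the labels.

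The 48 genes, their roles and the pathway and marker lists were chosen with earlier results of these data known. Genes averaging 1 TPM or more (11796) were fitted as log2(TPM + 1) by limma 3.58.1 (R 4.3.3) with a mean-variance trend and Benjamini-Hochberg adjustment. Calls used the thresholds of the study's methods, an FDR under 0.05 and a 2-fold change or more. Single values were compared by a 2-sided exact permutation test over 70 arrangements. In simulated data for this comparison (11796 genes), 99.0% of 200 changed genes and 2 of 11596 unchanged genes were called. The changes put in were larger than those of all tested interferon-stimulated genes but Oas1a, and weakly expressed genes received none. The share recovered was therefore not measured for smaller changes or for low levels.

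Values in every library were given for Ifnb1, its receptor chains, the highest level and the 2 highest and 2 lowest fold changes of each other role, 6 pathway genes (Stat2, Irf9, Irf1, Irf7, Ifngr1 and Ifngr2), and the highest and lowest called gene of each pathway list. Others are named by mean or fold change, and some items are not reported here. Promoters were printed for the highest and lowest fold change. Positions, overlaps and shared 31-base words are from GENCODE M21 on GRCm38, which holds 55227 of the 55487 listed genes, and promoters from RefSeq on GRCm38.p6. Mx1, Mx2, Oas2, Rtp4, Dhx58, Zbp1, Ifi204, Iigp1, Usp18, Parp9 and Parp14 had no promoter entry. Alternatives covered the scaling, the filter, the pseudocount, the variance trend, the replicate block, the thresholds, a longer motif and leaving out each library. Python 3.11.15, pandas 2.3.3, scipy 1.17.1 and matplotlib 3.10.9 were used for tables, exact tests and figures.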

Additional observations from a re-analysis of the deposited data

Results flagged for a closer look

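Among 104 groups of 4 values examined for the named genes, 4 held a library standing apart from the other 3 (gap over range past Dixon's 95% critical value), where chance gives about 5.2. Isg15 in LPS replicate 1 was the lowest of its group at 161.86 TPM, beside 168.2 to 168.8 TPM in the others. Mx2 in LPS replicate 2 was the highest at 3.59 TPM, beside 1.45 to 1.78 TPM, and without this library Mx2 had a log2 fold change of 0.87 (limma, adjusted p = 3.57e-04, with 3.57e-04 to 0.0389 over the libraries left out in turn). Zbp1 in LPS + UDCA replicate 2 was the highest at 4.67 TPM, beside 2.0 to 2.29 TPM, and without it Zbp1 had a log2 fold change of -1.25 (limma, adjusted p = 2.19e-04, with 2.19e-04 to 0.00783 over the libraries left out in turn). Ifi47 in LPS replicate 3 was the highest at 6.17 TPM, beside 4.40 to 4.54 TPM, and without it Ifi47 fell by 0.513 (limma, adjusted p = 0.00289, with 0.00185 to 0.00552).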

How the results depend on the processing

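Of the single-gene values under all alternatives, 850 kept their direction and their side of the thresholds, 34 gained and 10 lost a call and 23 changed sign, all of the last for genes that did not pass. Most of the 34 came from dropping the 2-fold rule, which can only add calls, and the rest were for Ifit1 and Samd9l. With median-of-ratios scaling, which lowered the median of all genes by 0.10, the genes called higher were 0 in receptor signaling and 1 in interferon beta induction, the medians were -0.0636 over the 40, -0.229 for sensors and 0.362 for GTPases, and Oas3 (-0.0467), Rsad2 (-0.0592) and Ifi35 (-0.0636) changed sign. With quantile normalization 1 of the interferon-stimulated genes was called higher, as was 1 gene each in signaling and induction, the medians were -0.0979 over the 40 and 0.392 for GTPases and Rsad2 was at -0.0775. With the median of all genes taken off, 1 gene each was called higher in signaling and induction, the medians were -0.0692 over the 40 and 0.383 for GTPases, and Oas3 (-0.0227), Rsad2 (-0.0561) and Ifi35 (-0.0397) changed sign. Without a filter the medians were 0.059 for effectors and 0.37 for GTPases. With a mean of at least 5 TPM, which leaves Gbp3 and Zbp1 untested, 1 was called higher and 1 lower, 9 rose and 6 fell at the FDR alone, and the effector median was 0.248. Pseudocounts of 0.1 and 0.01 each gave 4 called higher, adding Ifit1 and Samd9l, and 3 higher among the further interferon-induced genes. Over all genes tested, 1444 and 1489 were called higher with these pseudocounts, beside 1028 in the main fit. The number was 807 with median of ratios, 874 with quantile normalization and 822 with centring. At the FDR alone 16 and 10 interferon-stimulated genes, 8 and 5 signaling, 11 and 6 induction and 13 and 25 further genes were higher and lower.

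Leaving out each library gave 2 to 3 called higher and 1 to 2 called lower, and among the further genes 0 to 2 higher. Over all genes tested, 971 to 1130 were then called higher and 964 to 1031 lower. The genes whose sign changed ranged from -0.0507 to 0.0542 for Ifit3, -0.0749 to 0.0304 for Oas2, -0.149 to 0.0309 for Eif2ak2, -0.0829 to 0.0487 for Ifi204, -0.0287 to 0.0945 for Rsad2 and -0.142 to 0.043 for Xaf1. The cause of these changes was not tested.

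Whether the replicate numbers shared by the groups pair the libraries is not settled. Deviations of same-numbered libraries correlated at -0.0354 to 0.1463 over 4 pairs, beside -0.1448 to 0.1622 over 12 other pairs. Of 4 libraries in each group, 2 LPS and 3 LPS + UDCA libraries correlated best with their own number. With the replicate block, 1034 genes of all tested were called higher and 1000 lower, and 2 and 2 of the interferon-stimulated genes, with no call past both thresholds changed, while at the FDR alone 15 rose and 10 fell, without Ifit2. The unknown depth limits what can be said of the 8 untested genes.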
